A study of Mus musculus with 8 samples.

Results

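The plastin family consists of 3 genes, Pls3 (plastin 3, or T-plastin), Pls1 (plastin 1, or I-plastin) and Lcp1 (plastin 2, or L-plastin), and it was examined in corticostriatal tissue of 8 mice, from the strains BTBR/R and B6. The members were taken as every array probe whose gene name was one of these symbols, which gave 9 of 56605 probes and 3 of 37074 gene names. Pls3 had 3 probes, Pls1 had 2 and Lcp1 had 4. Pls3 was chosen by its difference in signal between the strains in these same arrays, so its values are a description and no test is given for them. Pls1 and Lcp1 were included by family name.

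The B6 group was 4 male C57BL/6J mice aged 4 months. The BTBR/R group was 4 male BTBRTF/ArtRbrc mice, an inbred black and tan brachyury subline, aged 4 months except for replicate 1, which was 6 months old. The related subline BTBR/J is the one often used to model autism spectrum disorder, and the study proposes a mild autistic-like tendency in BTBR/R mice. RNA of each mouse was hybridized to 1 Agilent 1-colour array of its own. All 8 arrays lay on 1 slide, with B6 in slide column 1 and BTBR/R in slide column 2, and the effects of strain and of slide column cannot be told apart. Fewer cells of a type and less RNA per cell cannot be told apart in such bulk tissue either.

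Plastins bundle actin filaments. Each is built of calponin-homology domains arranged as a pair of actin-binding units, preceded by a calcium-binding region. Plastin 3 is made in many solid tissues and is known as a protective modifier of spinal muscular atrophy, the motor neuron disease caused by loss of SMN. Plastin 1 is the plastin of intestinal brush borders and of hair cell stereocilia, and plastin 2 is the plastin of leukocytes, which include microglia in the brain.

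The values below are scaled signals, that is, the log2 processed signal of a probe minus the 75th percentile of its array, and differences are BTBR/R minus B6. A probe was counted as detected where the scanner software marked its spot as well above background. The B6 arrays reached this mark at lower signals, with a lowest detected processed signal of 14.5 to 17.8, whereas that of the BTBR/R arrays was 36.1 to 47.1. Per array, 64.5% to 66.8% of the probes were detected in B6 mice and 53.5% to 57.2% in BTBR/R mice. A call required a limma adjusted p below 0.05 together with a difference of at least 2-fold. Of all probes, 2.27% were called lower and 20.2% were called higher in BTBR/R mice, whereas 1.04% of the probes detected on all 8 arrays were called higher. The markers of the dissected regions were present, with all 8 cortical excitatory neuron genes and all 9 striatal projection neuron genes of the marker lists detected on all 8 arrays. All 6 choroid plexus genes were detected on all 8 arrays too. Their summed scaled level on a linear scale was 3.21 to 42.0 in B6 mice and 6.68 to 26.2 in BTBR/R mice. It thus varied widely between mice of each strain. In the striatal list, Pde10a, a phosphodiesterase of striatal projection neurons, was lower by 1.07 (SE 0.06, limma adjusted p = 2.49e-05). The other 8 genes differed by at most 0.06 in size at their brightest probe. Further detected probes of these 8 genes differed by -0.31 (Drd1) to 0.12 (Rgs9).

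The Pls3 probes read different stretches of the gene, which lies on the minus strand of chromosome X, and their sequences are shown because the probes disagreed. Coordinates are those of the mm9 build in the array annotation. The brightest probe lies at chrX:73031111-73031170 and starts at base 3073 of the RefSeq transcript NM_145629. The second lies 5525 bases away at chrX:73036636-73036695 and starts at base 1808 of the same transcript. The dimmest lies at chrX:73118752-73118811, a further 82116 bases away, and belongs to the Ensembl transcript ENSMUST00000126599 alone. Whether each stretch is coding or untranslated is not given in the annotation used here. The last 30 bases of the brightest probe, the whole second probe and the qRT-PCR primer pair that the study designed for Pls3 are printed 5′ to 3′. The capitals mark the 10 bases at the end of the brightest probe that the reverse primer matches as its reverse complement. The probe and the primer thus overlap by these 10 bases. The study reported lower Pls3 in BTBR/R mice by qRT-PCR, and a lower cortical Pls3 signal by in situ hybridization.
Pls3 brightest probe, last bases: atgtatgtcggacttgatgtACTCTTGCTC
Pls3 second probe: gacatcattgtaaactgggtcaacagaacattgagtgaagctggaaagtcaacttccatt
Pls3 forward primer: tcaataagttggtccgatacatgc
Pls3 reverse primer: agagcttgacaGAGCAAGAGT

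The brightest Pls3 probe lost its signal on every BTBR/R array. Its processed signal was 6014, 6726, 6283 and 7062 in B6 mice 1 to 4. In BTBR/R mice 1 to 4 it was 8.69, 11.0, 13.3 and 31.4, under the limit of its own array each time. The mean scaled signal of the B6 group was 3.53 ± 0.09 (SD, n = 4), and that of the BTBR/R group was -5.32 ± 0.77 (SD, n = 4). Because no BTBR/R array measured this probe, its fold is a lower bound, in which the B6 mean is set against the mean, over the BTBR/R arrays, of the higher of the array's detection limit and the probe's own signal there. By this bound the B6 signal was at least 151-fold higher, and at least 53.5-fold higher under normexp background correction.

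The second Pls3 probe did not show the same loss. Its processed signal was 192, 213, 180 and 215 in B6 mice 1 to 4. In BTBR/R mice 1 to 4 it was 26.2, 31.7, 328 and 95.4. The probe was detected on all 4 B6 arrays and on 2 of 4 BTBR/R arrays, those of replicates 3 and 4. BTBR/R replicate 3 lay above every B6 mouse and the other 3 BTBR/R mice lay below every B6 mouse, so the groups overlapped. The mean scaled signal of the B6 group was -1.50 ± 0.11 (SD, n = 4), and that of the BTBR/R group was -2.99 ± 1.65 (SD, n = 4). The spot of BTBR/R replicate 3 had a raw mean of 388 and a raw median of 385 over its pixels and carried no outlier mark. Its local background was marked as an outlier, as was that of BTBR/R replicate 4 and of B6 replicate 1, and the part of these marks in the values was not tested. Without BTBR/R replicate 3 the difference went from -1.49 to -2.22.

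The remaining Pls3 probe was dim in both strains. Its processed signal was 35.2, 38.1, 55.4 and 43.7 in B6 mice 1 to 4. In BTBR/R mice 1 to 4 it was 34.9, 30.4, 27.9 and 34.8. All 4 B6 arrays and no BTBR/R array counted as detected, but the B6 mean was under the mean limit of the BTBR/R arrays, so that no fold is given. A bound could thus be given for the brightest probe alone. The second probe has no bound, because 2 BTBR/R arrays measured it, and its difference of -1.49 rests on 2 BTBR/R values that were not above background and was -0.63 under normexp. For the dimmest probe a loss was not detectable at these limits.

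**Figure D1:**
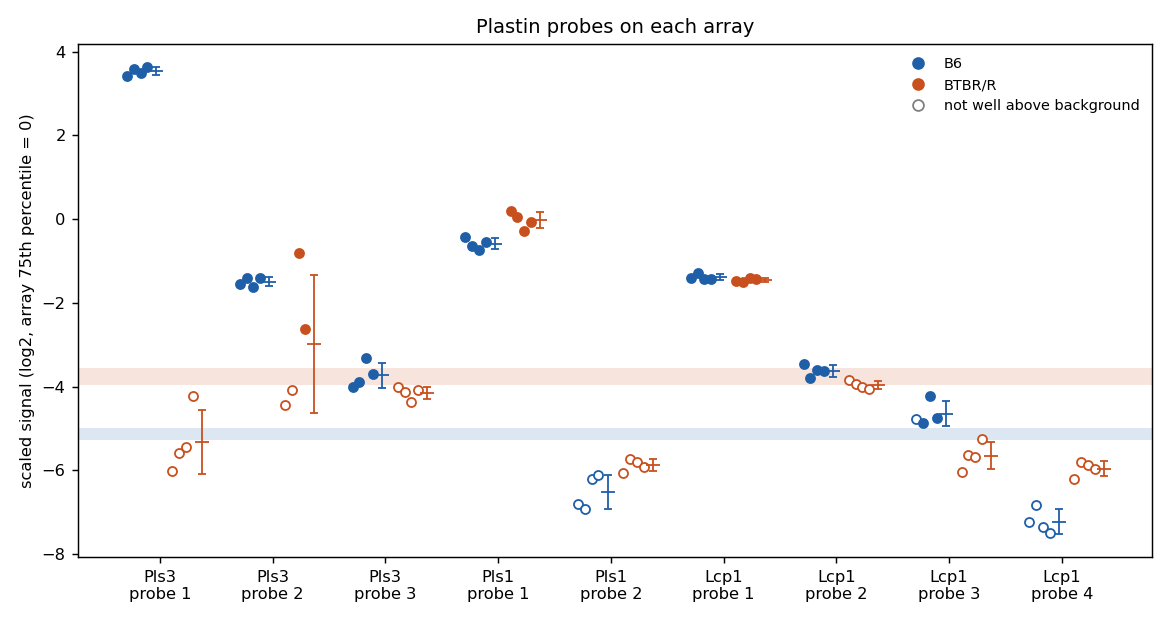
Scaled signal (log2, with the 75th percentile of each array at 0) of the 9 plastin probes, numbered by brightness within each gene, on the 4 B6 (blue) and 4 BTBR/R (orange) arrays. Filled points were well above background and open points were not, the bars give the mean and SD, and the shaded bands span the detection limits of the arrays of each strain; Pls3 probe 1 falls from 3.53 to below the limit, Pls3 probe 2 is scattered in BTBR/R mice, and Pls1 probe 1 is higher in every BTBR/R mouse.

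Pls1 was higher in BTBR/R mice at the probe that could be measured. This probe lies at chr9:95653258-95653317, on the minus strand, and was detected on all 8 arrays. Its processed signal was 421, 361, 335 and 389 in B6 mice 1 to 4. In BTBR/R mice 1 to 4 it was 651, 556, 475 and 564. Every BTBR/R mouse lay above every B6 mouse. The difference in scaled signal was 0.57 (SE 0.11, 95% confidence interval 0.30 to 0.83, limma adjusted p = 0.0061), a 1.48-fold difference that did not reach the 2-fold required for a call. Among all genes whose brightest probe was detected on all 8 arrays, 13.9% were higher in BTBR/R mice at an adjusted p below 0.05. The other Pls1 probe, at chr9:95715680-95715739, belongs to the Ensembl transcript ENSMUST00000119760 and was detected on no array. Its processed signals ran from 4.62 to 8.21 in B6 mice and from 8.46 to 10.2 in BTBR/R mice, so it has no measured level in either strain.

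Lcp1 did not differ detectably at its brightest probe. This probe, at chr14:75630210-75630269 on the plus strand, had processed signals of 214, 231, 208 and 211 in B6 mice 1 to 4. In BTBR/R mice 1 to 4 they were 203, 190, 218 and 219, and the groups overlapped. The difference was -0.07 (SE 0.05, 95% confidence interval -0.19 to 0.06, limma adjusted p = 0.366).

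The remaining Lcp1 probes lay near or under the detection limits. The second, at chr14:75629312-75629371, had processed signals of 40.2 to 50.8 in B6 mice and 34.7 to 39.6 in BTBR/R mice. It was detected on all 4 B6 arrays and on no BTBR/R array, with a difference of -0.34 (SE 0.08, limma adjusted p = 0.0153) and a bound of at least 1.03-fold. Another, whose 60 bases are placed within chr14:75626883-75629056, was detected on 3 of 4 B6 arrays and nowhere in BTBR/R mice. It passed the call as lower, with a difference of -1.003 (SE 0.20, limma adjusted p = 0.00594), but its B6 mean was under the mean limit of the BTBR/R arrays, so that no fold is given. The last, at chr14:75577759-75577818, was detected on no array and was called higher, with a difference of 1.27 (SE 0.16, limma adjusted p = 5.03e-04). These calls pointed in opposite directions within 1 gene, and with a floor at the highest detection limit of the 8 arrays the differences of these 3 probes became -0.02, 0.00 and 0.00.

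Lcp1 is a leukocyte gene, so the levels of microglia and leukocyte genes are given beside it. Of 22 microglia and leukocyte genes, 21 were detected on all 8 arrays, and C1qb, a subunit of complement C1q, was the 1 called gene. C1qb fell by 1.42 on the log2 scale (SE 0.06, limma adjusted p = 8.42e-06). Among all genes by their brightest probe, 2.19% were called lower and 21.9% were called higher, and among those detected on all 8 arrays, 1.18% and 1.04%. At an adjusted p below 0.05 with no fold limit, 10 of the 21 were lower and 1 was higher, against 14.5% lower and 13.9% higher among all genes detected on all 8 arrays. The median difference of the 21 detected genes was -0.15, against 0.003 over all genes detected on all 8 arrays. The summed scaled level of the list, on a linear scale, was 292 to 315 in B6 mice and 273 to 288 in BTBR/R mice. This sum is weighted to the brightest genes, Siglech and Itgam, with B6 mean scaled signals of 7.06 and 6.10. By their brightest probes, Siglech and Itgam differed by -0.09 and -0.01 (limma adjusted p = 0.191 and 0.906).

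Beside C1qb, the 10 lower genes included C1qc, a further C1q subunit, at -0.84 (SE 0.06), Tyrobp, a signalling adaptor, at -0.76 (SE 0.06), and Trem2, a receptor that signals through Tyrobp, at -0.59 (SE 0.05). Laptm5, C1qa and Itgb2 differed by -0.39, -0.35 and -0.31. These 6 genes were named after their values were seen.

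The 7 genes listed as defining markers of microglia and leukocytes had differences in both directions. Cx3cr1, the fractalkine receptor, differed by -0.71 (SE 0.07, limma adjusted p = 8.71e-05), although a second Cx3cr1 probe, also detected on all 8 arrays, was called higher at 1.71. Aif1, which encodes Iba1, differed by -0.25 (SE 0.05, limma adjusted p = 0.00444). P2ry12, a purinergic receptor of microglia, differed by 0.22 (SE 0.07, limma adjusted p = 0.0478). Tmem119, Csf1r, Itgam and Ptprc differed by 0.10, -0.03, -0.01 and -0.10, with limma adjusted p-values of 0.270, 0.608, 0.906 and 0.133, but the other Itgam probe differed by -0.33 and the other Ptprc probes by -1.45 to -0.82. The Ptprc probe at -1.45 was called lower and was detected on 1 BTBR/R array. These Cx3cr1 and Ptprc probes were the 2 called among 14 other probes of the microglia and leukocyte lists that were detected throughout 1 strain or both. Of all probes so detected, 3.38% were called lower and 1.03% were called higher. The Ptprc probe passed this filter through the B6 arrays alone, so its call is no sign of a direction. Of 12 blood leukocyte genes, 4 were detected on all 8 arrays, and the summed level of the list was 4.43 to 6.05 in B6 mice and 3.84 to 4.74 in BTBR/R mice. The 1 called gene of this list was Cd3g, which was detected on 1 BTBR/R array alone. The part of these cells in the Lcp1 values was not tested.

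Of 97 genes on the actin, SMN and brush border lists, 3 were called higher and 1 was called lower by their brightest probe. Among all genes by their brightest probe, 21.9% were called higher and 2.19% were called lower. Of the 3 listed genes called higher, 2 were detected on no array. Among the 87 listed genes detected on all 8 arrays, 1 was called higher and 0 were called lower, which is near the 1.04% and 1.18% of all genes so detected. By the brightest probe none of the 6 actins, the 20 actin bundling and cross-linking genes or the 21 relatives with calponin-homology domains was called, and their median differences were -0.04, 0.05 and 0.02. Other probes of the listed genes gave further calls. Of 116 such probes detected on every array of either strain or both, 6 were called lower and 0 were called higher, beside 3.38% and 1.03% of all probes so detected, and their genes were named after the values were seen. Sptbn1, a spectrin, was detected on all 8 arrays at this probe and differed by -1.12. The probes of Actn2, an actinin, Eps8, an actin-capping and bundling protein, Camk2b, an actin-binding kinase subunit, Syne2, a nesprin, and Tmod2, a tropomodulin, were detected on all 4 B6 arrays and on no BTBR/R array, with differences of -1.41, -1.48, -1.91, -1.08 and -2.39. These 5 probes passed the detection filter through the B6 arrays alone, which detect lower signals, so their count is no sign of a direction. Of 35 genes of actin nucleation and turnover, Cap1, an actin-monomer recycling protein, was called. Its brightest probe was higher by 1.09 (SE 0.05, limma adjusted p = 1.76e-05), whereas its other detected probes differed by -0.04 to 0.68.

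None of the 14 genes of the SMN complex and the motor neuron disease modifiers was called. Gemin5, an SMN complex subunit that binds small nuclear RNAs, came closest, with a difference of 0.98 (SE 0.05, limma adjusted p = 1.62e-05) or 1.97-fold. The list's median difference was -0.03, and 5 had an adjusted p below 0.05, of which 3 were higher and 2 were lower, beside the 13.9% and 14.5% of all genes detected on all 8 arrays. The 12 brush border and stereocilium genes, the company of Pls1 in epithelia and hair cells, had 4 members detected on all 8 arrays and 4 detected on none. Myo7a, an unconventional myosin of stereocilia, was detected on 4 B6 and 3 BTBR/R arrays and fell by 2.37 on the log2 scale (SE 0.22, limma adjusted p = 8.85e-05), with a difference of -1.41 under normexp. The other called genes of that list, Cdhr5 and Slc15a1, were called higher and were detected on no array.

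**Figure D2:**
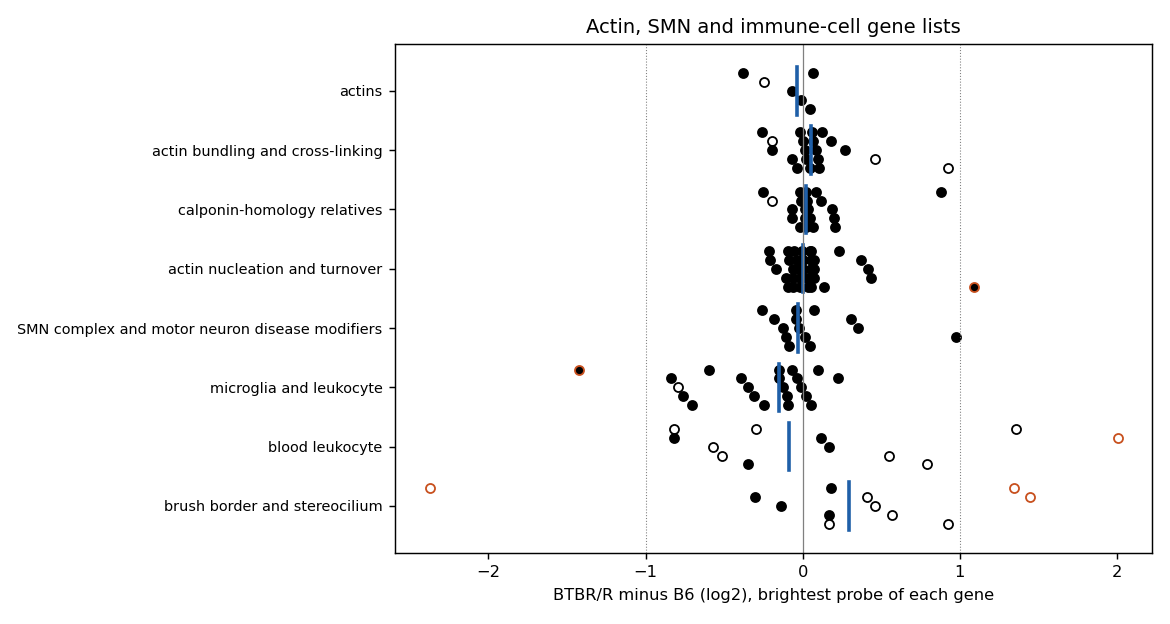
Difference between BTBR/R and B6 mice (log2, brightest probe of each gene) for the genes of 8 lists, with 1 point per gene. Filled points were detected on all 8 arrays, orange outlines mark called genes, blue bars are list medians and dotted lines mark 2-fold; most genes of the actin and SMN lists lie close to 0, with Cap1 at 1.09 and C1qb at -1.42.

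The probes around Pls3 were examined to see whether neighbours shared the loss. Within 1 Mb of the Pls3 probes the array held 43 other probes, of which 26 were detected on all 8 arrays. Of the 43, 0 were called lower and 9 were called higher, beside 2.27% and 20.2% of all probes, so the number called higher is near the background. Among the 26 detected on all 8 arrays, 2 were called higher, beside 1.04% of all probes so detected. Of the 9, 5 were detected on no array (Gm14707, Cldn34b3, Cldn34b4, Cldn34d and ENSMUST00000119393) and ENSMUST00000146082 was detected on 1 BTBR/R array. The remaining 3 were BB430852, 4933407K13Rik and a lincRNA region, all of them downstream of Pls3 on the same strand. On the far side, the nearest detected gene was ENSMUST00000121090, which differed by 0.03 (SE 0.10, limma adjusted p = 0.824).

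**Figure D3:**
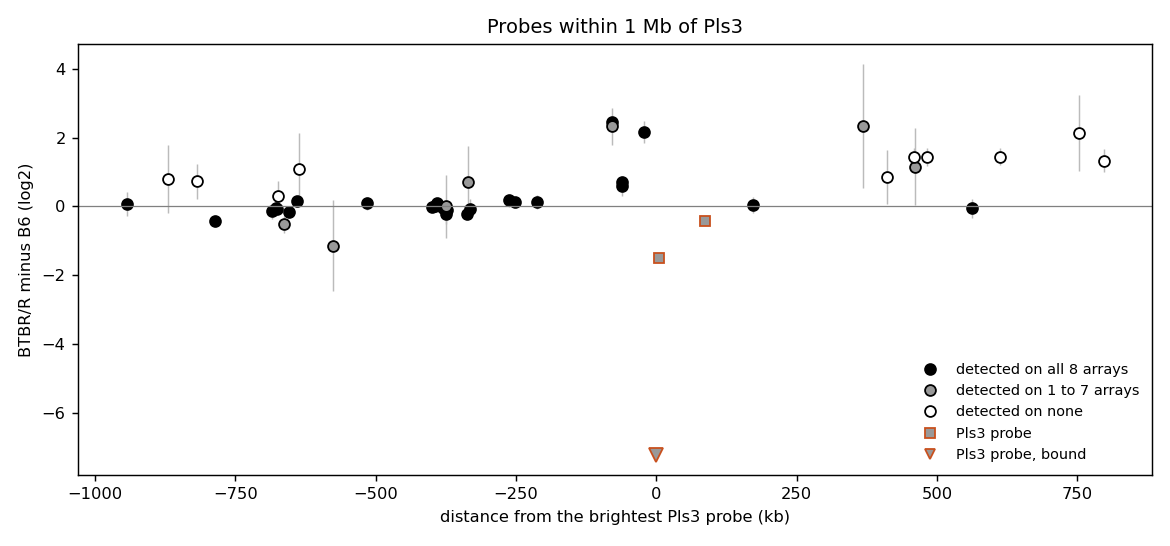
Difference between BTBR/R and B6 mice (log2) of every probe within 1 Mb of Pls3, against its distance in kb from the brightest Pls3 probe, with 95% confidence intervals for all but the Pls3 probes. The triangle is the brightest Pls3 probe at its bound of 151-fold lower, squares are the measured differences of the other 2 Pls3 probes, and the fill gives the number of arrays on which a probe was detected; the detected probes within 100 kb downstream lie above 0.

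The 5 probes in the 100 kb downstream of the brightest Pls3 probe had higher means in BTBR/R mice. They were singled out after their values were seen. The probe of BB430852, a hippocampal cDNA, had scaled signals of -2.47, -2.51, -2.47 and -2.41 in B6 mice 1 to 4. In BTBR/R mice 1 to 4 they were 0.07, -0.10, 0.01 and -0.03, a difference of 2.45 (SE 0.05, limma adjusted p = 4.54e-07). The first probe of 4933407K13Rik, a RIKEN cDNA, was detected on 3 B6 and 4 BTBR/R arrays and was higher by 2.33 (SE 0.23, limma adjusted p = 1.17e-04), with 1.21 under normexp and 1.42 with the floor. The lincRNA region nearest to Pls3, 22.5 kb away, was higher by 2.16 (SE 0.13, limma adjusted p = 2.76e-05), with 1.26 under normexp. The second 4933407K13Rik probe and the other lincRNA probe were higher by 0.71 (SE 0.06, limma adjusted p = 5.22e-05) and 0.59 (SE 0.13, limma adjusted p = 0.00811), which was not enough for a call. The 5 probes are not independent of each other, since BB430852 and the first 4933407K13Rik probe carry the same transcript cluster and the lincRNA annotations overlap. The sequences of the 3 called probes are given in lower case with nothing marked. The array annotation places them at chrX:72951923-72951982, chrX:72952331-72952390 and chrX:73008594-73008653. Whether they also match elsewhere in the genome was not tested, so their signals may not come from these positions alone.
BB430852 probe: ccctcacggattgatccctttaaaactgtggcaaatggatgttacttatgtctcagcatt
4933407K13Rik probe: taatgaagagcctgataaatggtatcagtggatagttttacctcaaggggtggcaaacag
lincRNA probe: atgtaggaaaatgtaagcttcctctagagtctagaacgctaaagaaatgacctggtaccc

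**Figure D4:**
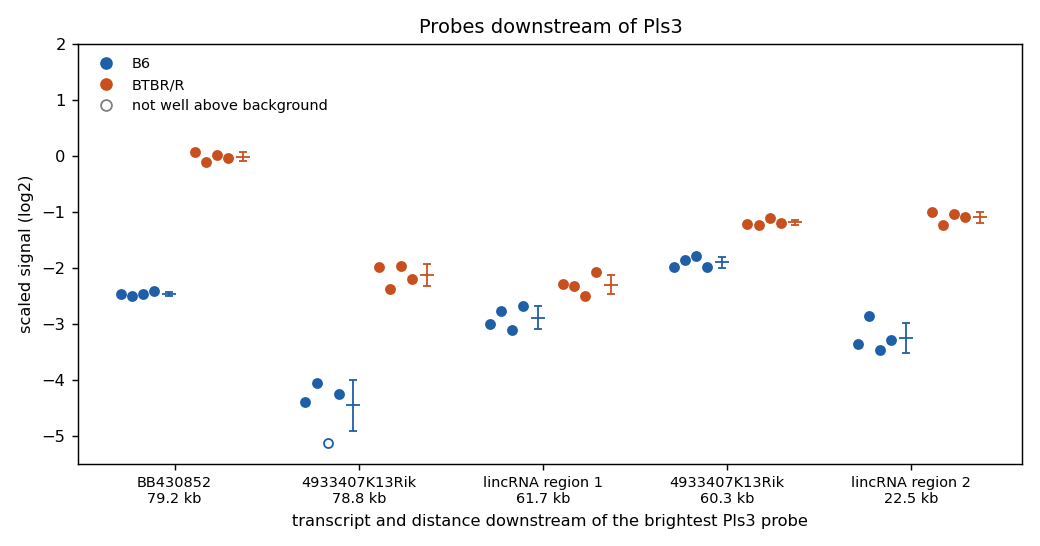
Scaled signal (log2) of the 5 probes within 100 kb downstream of the brightest Pls3 probe on the 4 B6 (blue) and 4 BTBR/R (orange) arrays, with mean and SD. The open point was not well above background, and the differences run from 0.59 to 2.45.

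Genes with the pattern most like each plastin were listed as a description over the 8 arrays. For the brightest Pls3 probe, likeness was the root mean square difference between mean-centred scaled signals, and the nearest genes were AK035988 at 0.54, Ccl21a at 1.15, Rbbp9 at 1.16, Gm5858 at 1.30 and Polr3e at 1.45. All 5 lie on other chromosomes than Pls3. Each was detected on all 4 B6 arrays and on at most 1 BTBR/R array, and Pls3 on none of the latter, so these values and their order rest largely on signals that were not above background. For the brightest Lcp1 probe, likeness was Pearson's r among probes detected on all 8 arrays, and the highest were Tmem208 and Ndst3 at 0.98 and Cep41, Hspe1 and Car12 at 0.97. For the brightest Pls1 probe the highest named genes were Pcgf5 and Ccdc50 at 0.99 and Tnik at 0.98, beside 2 lincRNA regions. These values share the same arrays and were picked as the highest of many probes.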

How the data were processed

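Corticostriatal RNA of 4 B6 and 4 BTBR/R mice was measured on 8 arrays and grouped by the strain in the labels. The authors deposited spot intensity values from Agilent Feature Extraction 10.7.3.1, with the processed signal background subtracted and detrended, and low signals replaced by a surrogate. They also deposited log2 values from GeneSpring, which, after a shift by 1 constant for each array, matched the log2 processed signal to within 0.01 at 99.97% or more of the probes. Control and outlier spots were left out and spots of a probe were averaged. The strains were compared by lmFit and eBayes of limma 3.58.1 (R 4.3.3), and p-values were adjusted over 56605 probes by the Benjamini-Hochberg method. On simulated data the fit missed the share of changed probes first set as its target. The misses were probes not detected on every array, and the target was then replaced by recovery at detected probes, bias, interval coverage and false calls, which it met. Calls at dim probes may therefore be incomplete. Summaries and figures were made in Python 3.11.15 (matplotlib 3.10.9, numpy 2.4.6, pandas 2.3.3, scipy 1.17.1). The number of arrays limits the precision, and p-values measure the spread between these mice. Among the spots kept after control and outlier spots were left out, none was saturated.

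The members and lists were chosen with earlier results of these data known. A listed gene was represented by its brightest probe. Named genes were all member probes, the called list genes detected throughout 1 strain or both, 7 defining microglia genes, called genes within 1 Mb of Pls3 with the nearest detected gene on each side, and the 5 genes most like each brightest probe. The other called list genes, being few, were named after their values were seen. Alternatives were median scaling, scaling on detected probes, quantile normalization, normexp with an offset of 50, the authors' log2 values, a detection filter, the methods' t-test, trend and robust eBayes, a replicate block, leaving out each mouse and, chosen after seeing the data, a floor at the highest detection limit. Diaph1, Diaph2, Diaph3 and Drd1a were not found under those symbols and were not analysed here.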

Additional observations from a re-analysis of the deposited data

How the results depend on the processing

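The count of Pls3 probes lower by the bound was 1 under every alternative that gave one, although the other 2 probes could not be given a bound in the report's setting, and the bound for the brightest probe ran from 5.74 (normexp) to 7.29 on the log2 scale. The brightest Pls1 probe stayed higher with an adjusted p below 0.05 under its 18 alternatives (0.49 to 0.65). The other Pls1 probe, detected on no array, gives no support to this, and its difference of 0.63 lost an adjusted p below 0.05 under 11 of its 17 alternatives. The brightest Lcp1 probe turned from -0.07 to 0.017 under normexp (limma adjusted p = 0.776) and was -0.08 to -0.03 without each mouse in turn. With the other Lcp1 probes in its place the difference was -0.34, -1.003 and 1.27. Under quantile normalization the undetected probes of Lcp1 and Pls1 turned to -0.075 and -0.45. Quantile normalization, normexp, the detection filter and the floor left 2200, 563, 1557 and 789 called probes of 12697, of which 24.7%, 41.0%, 23.2% and 35.0% were higher, against 89.9%. Each of these 4 alternatives left 2 called genes on the actin and SMN lists, 1 on the microglia and leukocyte lists and 3 probes near Pls3. The methods' t-test and the replicate block also left 1 on the microglia and leukocyte lists. Without each mouse in turn, the called probes numbered 11792 to 12929, those near Pls3 8 to 10, the actin and SMN genes 4 to 5 (5 without BTBR/R replicate 1) and the microglia and leukocyte genes 1 to 2. The mouse numbers did not pair the strains, as the deviations of same-numbered mice correlated at 0.003, -0.07, -0.04 and 0.16, and with the replicate block 11693 probes were called. The 5 downstream probes kept their direction and an adjusted p below 0.05 under all 18 alternatives, and the differences of the 3 called ones were smallest under normexp, at 1.93, 1.21 and 1.26. The difference of the second Pls3 probe ran from -2.22 (without BTBR/R replicate 3) to -0.63 (normexp) over its 18 alternatives.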
